A study of Rattus norvegicus with 12 samples.

Results

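Intact adult rats given a single high dose of 17β-estradiol were compared with intact rats given only the corn oil vehicle, to describe what the hormone did to gene expression in the ventral prostate within 3 days. The comparison took in 6 of the 12 arrays of the series, 3 per group, and all 14506 genes that the array's annotation paired with a single symbol. All animals were male Wistar rats, 90 days old when treatment began, and the estradiol dose was 25 mg per kg of body weight in corn oil. The other 6 arrays came from rats castrated under ketamine and xylazine anaesthesia (3 arrays, called castrated) and from castrated rats that also received the same estradiol dose (3 arrays, called combined). RNA was taken from dissected ventral prostate and hybridized to Affymetrix arrays, 1 sample per array. The labels do not say which animal or animals each array represents, and p-values here rest on array-to-array spread that could be partly technical. The deposited values were read as log2 levels, on which a step of 1 means 2-fold.

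The rat ventral prostate is a secretory gland whose luminal epithelial cells depend on testicular androgen, and which regresses when androgen is withdrawn. A high dose of oestrogen acts on the gland indirectly, because it suppresses pituitary gonadotropins and with them testosterone, and directly, through oestrogen receptors in the epithelium and the stroma. Luminal cells carry a large endoplasmic reticulum and an active lipid metabolism that serve the export of secretory proteins. In bulk tissue such as this, fewer cells of a type and less RNA per cell cannot be told apart.

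The estradiol group was less uniform than the other groups. Estradiol arrays 1 and 2 had a narrower range of values, with an SD over all probe sets of 1.93 and 2.01, where the remaining arrays had 2.24 to 2.30. When genes were divided into 10 equal groups by their control level, the dimmest group lay above the control mean by a median of 0.64 on estradiol array 1 and 0.55 on array 2, and the brightest group differed from it by -0.90 and -0.37. On estradiol array 3 the same medians were -0.03 and -0.11. Estradiol array 3 stood apart in another way: Semg1, a product of the seminal vesicle, read 9.46 there and between 2.62 and 3.43 on the other 11 arrays, and Msmb, a secretory protein of other prostate lobes, read 8.47 there and between 3.54 and 4.18 elsewhere. Each result below was therefore also computed after quantile normalization, which gives all arrays the same distribution, and without estradiol arrays 1 and 2.

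**Figure D1:**
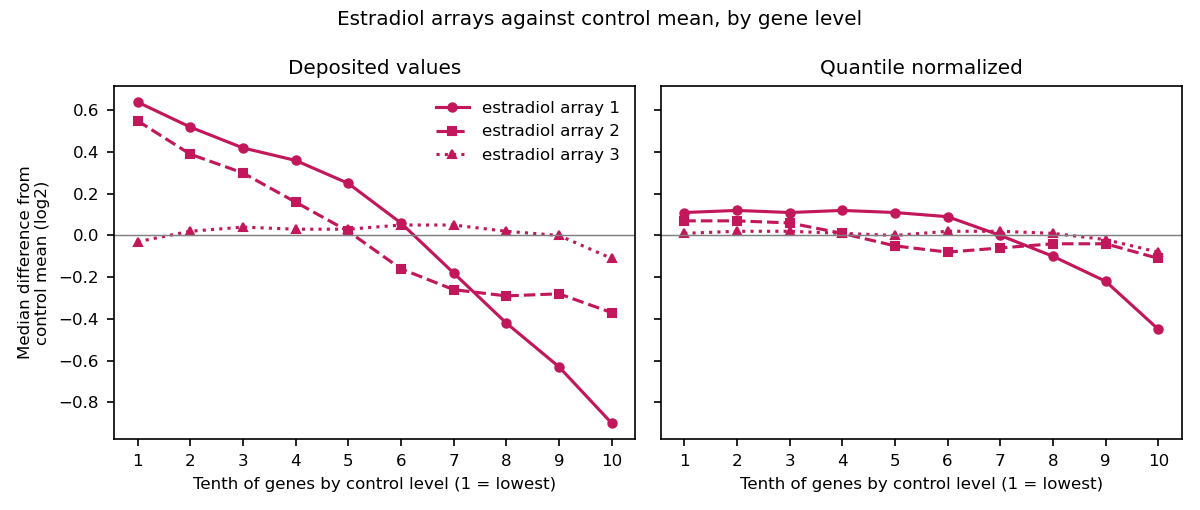
Each point is the median difference of an estradiol array from the control mean (log2, y axis) over 1 of 10 equal groups of the 14506 genes, ordered by control level (x axis), with deposited values on the left and quantile-normalized values on the right. On deposited values arrays 1 and 2 run from 0.64 and 0.55 in the dimmest group to -0.90 and -0.37 in the brightest, array 3 stays between -0.11 and 0.05, and after quantile normalization the brightest group lies at -0.45, -0.11 and -0.08.

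Estradiol changed 1159 genes, 7.99% of those tested, at an adjusted p under 0.05 in limma's moderated test with Benjamini-Hochberg adjustment over all genes. Rises made up 364 of these (2.51% of genes tested) and falls 795 (5.48%). Each count of a list's rises or falls below is to be read beside these shares. They depended on level. In the brightest of the 10 groups by control level 25 of 1451 genes rose and 289 fell, and after quantile normalization 62 and 171. In the dimmest group 61 rose and 0 fell, and then 18 and 4. Lists of bright genes, such as those of folding and cholesterol synthesis, are to be read with this in mind. Of the 1159, the difference was at least 2-fold for 472 (3.25% of genes tested). All 1159 moved the same way on each of the 3 estradiol arrays relative to the control mean, and for 1146 the estradiol and control arrays did not overlap, where 12.3% of all genes lay wholly above and 15.1% wholly below the controls. Estradiol array 3 had the smallest shift of the 3 for 75.8% of the falls and 41.2% of the rises. After quantile normalization 981 genes passed (6.76%), 383 of them rises (2.64%) and 598 falls (4.12%), with 759 of them among the 1159. Without estradiol arrays 1 and 2, 733 passed (5.05%), 403 as rises (2.78%) and 330 as falls (2.27%), with 445 of them among the 1159, so that the share of rises went from 31.4% to 55.0%. The estradiol group was then array 3 alone, the array with the high Semg1 and Msmb, and it was assumed to vary like the other groups, from whose arrays the whole estimate of spread came. Calls gained or lost on array 3 alone therefore have no replicate check within the estradiol group, and they are given below as that array's values. With array medians centred, 202 rose and 1107 fell, a share of rises of 15.4%, while the median difference over all genes moved from 0.07 to -0.05. The spread in the main fit came from all 12 arrays. With only the 6 compared arrays the median SE went from 0.19 to 0.23 and 197 genes passed, all among the 1159. Single arrays also set the count. Leaving out control 1, 2 or 3 gave 432, 390 and 433 genes. Leaving out combined array 1, which shares only the estimate of spread, gave 747, and leaving out estradiol 3 gave 5329. In every alternative the 1159 genes kept their direction where they were measured. They were chosen on these same arrays and moved the same way on each estradiol array, so the alternatives could hardly turn their direction. Of the 1159, 172 passed in all 23 alternatives, 42 that rose and 130 that fell.

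The largest rises included genes of proteolysis and transport. Mep1b, a chain of the membrane protease meprin, read 5.63, 5.75 and 5.46 on the control arrays and 8.59, 9.51 and 9.41 on the estradiol arrays, a rise of 3.56 ± 0.25 (log2 difference ± SE, n = 3 per group, limma adjusted p = 6.78e-06), or 11.8-fold. Its lowest estradiol value lay far above its highest control value. Each SE given here is limma's and uses a spread estimated over all 4 groups. For a gene uneven among the estradiol arrays it can understate their spread. Abcc3, an exporter of organic anions, read 6.10 to 6.54 in controls and 9.10, 9.13 and 9.44 after estradiol (2.83 ± 0.24). Atp6v1c2, part of the proton pump that acidifies vesicles, read 7.69 to 8.11 and then 10.14, 10.84 and 10.91 (2.68 ± 0.23). These 3 genes were high on all 3 estradiol arrays. Gpnmb, a membrane glycoprotein found in macrophages, was less even, at 8.63, 7.89 and 9.68 after estradiol against 5.74 to 6.18 in controls (2.75 ± 0.35). Mmp12, the macrophage elastase, spread most, at 7.0, 8.27 and 9.65 against 5.78 to 6.15 (2.36 ± 0.45), and its difference on array 3 alone was 3.70. Mmp15, a membrane-bound matrix metalloprotease, was even, at 10.72, 10.44 and 10.67 against 7.98 to 8.45 (2.41 ± 0.18). The other rises among the 12 largest were Lrrc34 (2.80), Gnat2 (2.50), the B-cell adaptor Blnk (2.11), the plasma glutathione peroxidase Gpx3 (2.08), the heparan sulfatase Sulf1 (2.02) and Pik3ip1, an inhibitor of phosphoinositide 3-kinase (1.97). Of the 12, all but Gnat2, Mmp12 and Sulf1 passed in all 23 alternatives.

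The largest falls included enzymes of lipid, carbohydrate and peptide metabolism. Cyp4a8, a fatty acid hydroxylase, had the largest fall, 4.67 on the log2 scale (SE 0.78, adjusted p = 0.00333), but control array 1 read 6.19 where controls 2 and 3 read 10.39 and 9.59, and the estradiol arrays read 4.99, 3.56 and 3.61. Cpa6, an extracellular carboxypeptidase, was cleaner: 8.76, 9.98 and 9.72 in controls and 5.73, 5.42 and 5.96 after estradiol, a difference of -3.78 ± 0.27. Pfkfb4, which sets the level of a regulator of glycolysis, had the smallest p of all genes (adjusted p = 1.82e-06), with 8.94, 9.12 and 8.99 against 5.99, 6.45 and 6.18 (-2.81 ± 0.16). The groups of Cpa6 and Pfkfb4 were separated by more than the spread of either. Neto2, an auxiliary subunit of glutamate receptors, fell by 3.47 and Oas1k, of the oligoadenylate synthetase family, by 3.14. Elovl6, which lengthens fatty acids, fell by 2.93, the glycosyltransferase B3gnt5 by 2.76, the whey acidic protein family member Wfdc3 by 2.73, the phosphatase Ptpn9 by 2.73 and the lysosomal protein Lamp3 by 2.71. Lao1, an amino acid oxidase, fell by 2.68, from 11.74 to 12.50 in controls to values as far apart as 8.03 and 10.89. Apart from Cyp4a8, Pbsn and Lao1, the 12 largest falls passed in all 23 alternatives.

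**Figure D2:**
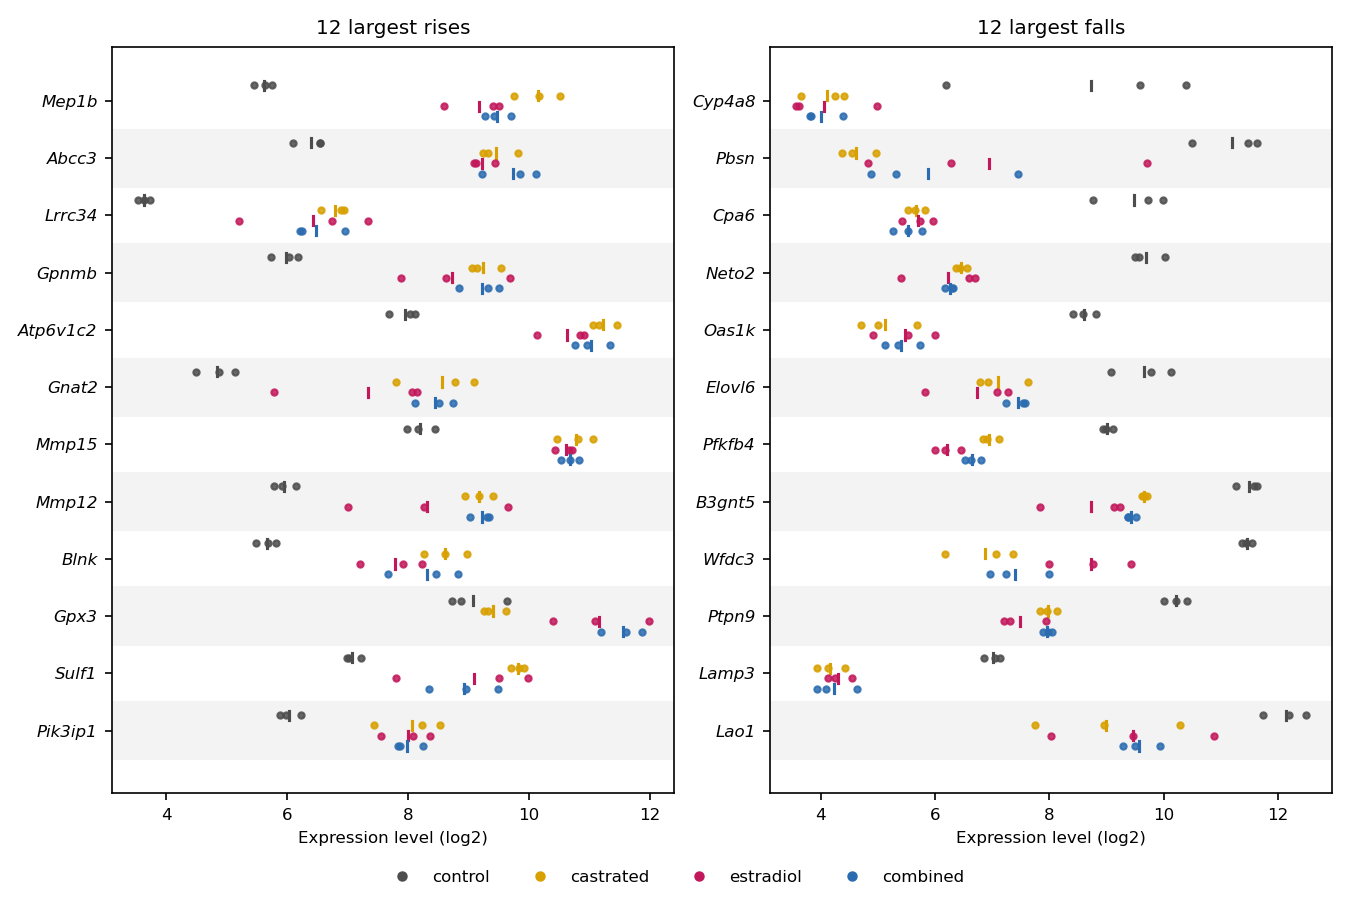
Expression level (log2, x axis) of the 12 genes with the largest rises (left) and falls (right), with 1 point per array, a short bar at each group mean and 4 groups of 3 arrays per gene. The estradiol points lie apart from the control points for every gene shown, because only genes without overlap were chosen. Pbsn, at 6.28, 4.82 and 9.71, spreads more than any other gene shown after estradiol.

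The hormone axis itself was read from genes known to respond to androgen, oestrogen or prolactin. Probasin (Pbsn), a secreted protein whose gene is driven by androgen, read 10.50, 11.47 and 11.63 in controls and 6.28, 4.82 and 9.71 after estradiol, a difference of -4.26 ± 0.94 (adjusted p = 0.0164). Estradiol array 3 thus lay close to the controls and arrays 1 and 2 far below them. On array 3 alone the difference was -1.49 and did not pass. On the castrated arrays Pbsn read 4.96, 4.37 and 4.54, below estradiol arrays 1 and 3 and near array 2. Of 26 measured androgen-responsive genes 6 fell (23.1%, where 5.48% of all genes did) and 0 rose. Their median difference was 0.04, against 0.07 over all genes, and it turned to -0.07 after quantile normalization (5 falls, 1 rise) and to -0.06 on array 3 alone (5 falls). Fkbp5, a co-chaperone of steroid receptors, read 10.65 to 10.73 in controls and 8.78, 9.07 and 9.35 after estradiol (-1.62 ± 0.18). Acsl3, which activates long-chain fatty acids, read 8.54 to 8.90 and then 6.81, 7.28 and 7.13 (-1.62 ± 0.16), and Eaf2, an elongation factor partner, fell by 1.23. These 3 passed in all 23 alternatives. Nans, of sialic acid synthesis, fell by 1.13, Tsc22d3, also a glucocorticoid target, by 0.96, and Tpd52 by 0.48. The members with values close to control included Tmprss2 (0.08, adjusted p = 0.803), Slc45a3 (-0.16) and Zbtb16 (-0.34).

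Secretory products of the lobe did not move as a block. Of 22 measured, 3 fell (13.6%) and 1 rose (4.55%), where 5.48% and 2.51% of all genes did. The median difference was -0.34, which quantile normalization took to -0.08. The list also holds Msmb, named above as a protein of other prostate lobes, which did not pass. Besides Pbsn, Andpro, an androgen-dependent prostatic protein, fell from 12.66 to 12.83 in controls to 9.70, 11.44 and 11.60 (-1.82 ± 0.49). It did not pass without arrays 1 and 2, where the difference was -1.13. The spermine-binding protein Sbp read 13.20 to 13.28 in controls and 12.54, 12.74 and 13.05 after estradiol, which did not pass (adjusted p = 0.0721). The highest value of any probe set was 13.31 to 13.39 on control arrays and 13.09, 13.10 and 13.35 on estradiol arrays. Sbp thus lay near the top of the scale, and whether this limited its difference was not tested. Scgb2a1 and Scgb1d2, subunits of the prostatic secretoglobins, had differences of -0.29 and -0.40 that did not pass. These abundant products of the ventral lobe read high on the arrays of both groups. Rnase4, a secreted ribonuclease, fell by 1.58 and Klk4, a kallikrein, rose by 0.73.

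Of 28 measured oestrogen-responsive genes 3 rose (10.7%, where 2.51% of all genes did) and 2 fell (7.14%, near the 5.48% of all genes). Their median was 0.17, and it was 0.11 after quantile normalization and 0.03 on array 3 alone. Gpx3 read 8.73 to 9.64 in controls and 10.40, 11.09 and 11.98 after estradiol. Castrated arrays read 9.26 to 9.63, within the control range, and combined arrays 11.19 to 11.87. Car12, a carbonic anhydrase, read 5.56 to 6.09 and then 6.96, 8.14 and 8.16 (1.96 ± 0.33), with castrated arrays between 6.36 and 7.57. The simple-epithelium keratin Krt19 rose by 1.36 and was nearly the same on the 3 estradiol arrays, at 10.86, 10.82 and 10.76. Its castrated arrays read 10.80 to 11.59, a difference from control of 1.74. Fhl2, a transcriptional cofactor, fell by 1.37 and cyclin D1 (Ccnd1) by 0.99. In the castrated group, without estradiol, these 2 genes fell by 1.09 and 1.27. The progesterone receptor gene Pgr, a classic oestrogen target, read 3.39 to 3.51 in controls and 4.36, 3.57 and 3.58 after estradiol, a difference of 0.38 with an adjusted p above the threshold. Of 13 genes of prolactin and STAT5 signalling 2 fell (15.4%, where 5.48% of all genes did). They were the prolactin receptor Prlr, from 10.30 to 10.51 in controls to 7.74, 8.84 and 9.30 (-1.75 ± 0.29), and the repressor Bcl6 (-0.67). After quantile normalization and on array 3 alone 1 of the 13 fell.

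Among the 22 measured genes of a panel of hormone action, receptors and growth factors, 4 fell (Pbsn, Fkbp5, Prlr, Esr2) and 2 rose (Clu, Met). Esr2, the oestrogen receptor of the prostate epithelium, read 8.90, 8.93 and 7.64 in controls and 6.64, 6.32 and 7.33 after estradiol (-1.73 ± 0.32, adjusted p = 0.00678). Control array 3 lay closest to the estradiol arrays, and on array 3 alone the difference, -1.16, did not pass. Esr1, the oestrogen receptor of the stroma, had a difference of 0.21, and the membrane receptor Gper1 0.09. Met, the receptor of hepatocyte growth factor, rose by 1.27, with control array 1 at 7.67 and the 3 estradiol arrays at 7.90, 8.49 and 8.34. The differences of Igf1 (-0.89) and Vegfa (-0.62), stromal and epithelial growth factors, did not pass (adjusted p = 0.068 and 0.0674). Those of Bcl2 (-0.74), Igf1r (0.45), Hsd17b1 (0.34), Shh (-0.29), Odc1 (-0.27), Krt14 (0.23), Fgf10 (-0.20), Tgfb1 (0.14), the glucocorticoid receptor Nr3c1 (-0.13), Fgf7 (0.09) and Hsd17b2 (0.06) did not pass either.

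Cholesterol synthesis was the list with the lowest median. Of 22 measured genes 15 fell and 0 rose, the median difference was -1.30, and 18 lay below all controls on all 3 estradiol arrays, where 15.1% of all genes did. The falls ran along the pathway. Acat2, which starts it by joining acetyl groups, read 9.22 to 9.45 in controls and 7.47, 7.45 and 7.05 after estradiol (-1.99 ± 0.20, adjusted p = 9.95e-05). Idi1, which isomerizes the isoprene unit, fell by 2.06 but spread from 5.73 to 7.73. Lss, which closes the sterol ring, read 10.39 to 10.61 and then 7.95, 8.85 and 8.92 (-1.94 ± 0.23). Dhcr7, the last reductase, read 8.65 to 8.81 and then 6.98, 7.23 and 7.24 (-1.59 ± 0.16). Between them Fdps, Fdft1, Sqle, Cyp51, Tm7sf2, Msmo1, Nsdhl, Hsd17b7 and Sc5d fell by 1.0 to 1.82. Insig1, the sterol sensor's retention protein and itself a target of the sterol response factors, fell by 1.56 and Stard4, a sterol carrier, by 0.62. Mvk, Mvd, Ebp, Srebf2 and Scap did not pass, at -0.33, -0.51, -0.62, -0.64 and -0.21, nor did Pmvk (0.70) and Insig2 (0.54). The list kept 15 falls after quantile normalization (median -1.06) and had 14 falls and 2 rises on array 3 alone (median -1.08). Idi1, Fdft1, Msmo1, Nsdhl and Sc5d were lowest on estradiol array 1. In the castrated and combined groups, compared with the same control arrays, 9 and 10 of the 22 fell, where 2.36% and 2.21% of all genes did, with medians of -0.72 and -0.97. The median of estradiol minus castrated over the 22 genes was -0.42, and none of the 22 passed.

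Fatty acid and glycerolipid synthesis fell in part: of 24 measured genes 10 fell and 0 rose (median -0.63). In the castrated group 6 of the 24 fell and 1 rose (median -0.24). In the combined group 5 fell and 1 rose (median -0.41). Of all genes 2.36% and 2.21% fell in those groups. Scd, a stearoyl-CoA desaturase, was the most uniform, at 8.47 on each control array and 5.90, 5.91 and 6.19 after estradiol (-2.47 ± 0.17). Its relative Scd2 fell by 2.01 and the elongase Elovl6 by 2.93. Smaller falls were those of Me1 (-1.34), which supplies reducing power, Aacs (-1.01), Elovl5 (-0.94), Fads1 (-0.90), Tecr (-0.88), Acacb (-0.85) and Dgat2 (-0.69). On array 3 alone 4 of the 24 fell, with a median of -0.31.

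**Figure D3:**
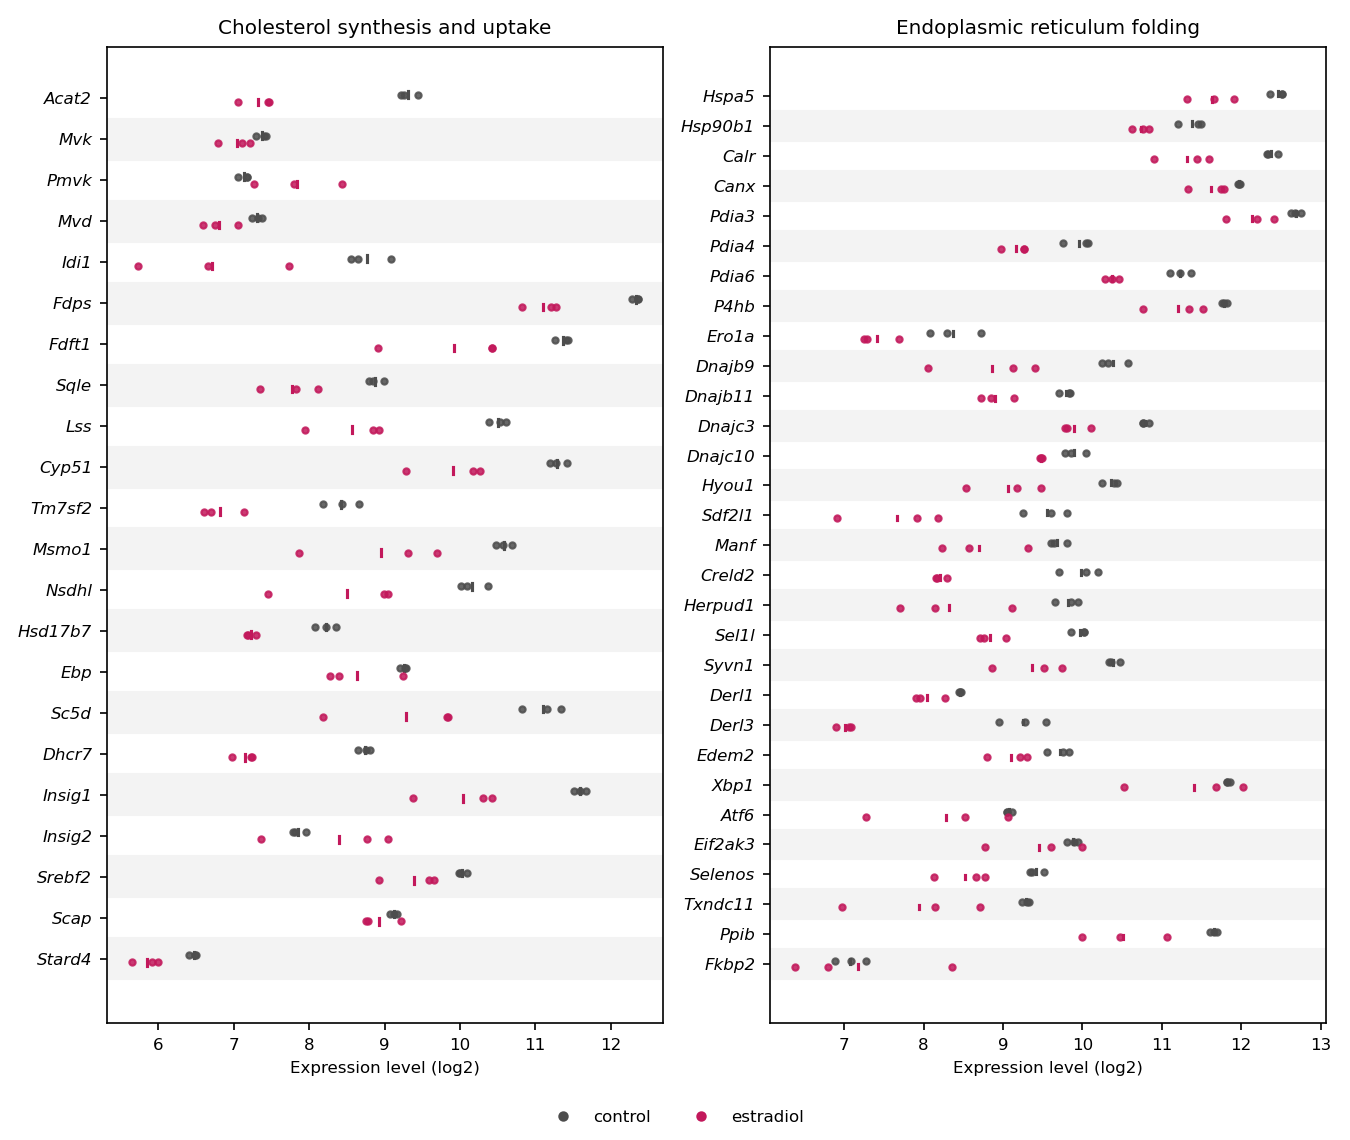
Expression level (log2, x axis) of every measured gene of cholesterol synthesis and uptake (left, 22 genes) and of endoplasmic reticulum folding (right, 30 genes) on the 3 control and 3 estradiol arrays, with a short bar at each group mean. The estradiol points lie below all control points for 18 genes on the left and 26 on the right, including the genes whose difference did not pass.

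Genes that make and export secretory proteins fell in number at each stage, from entry into the endoplasmic reticulum to the Golgi. Of 30 measured genes of folding in this compartment and of the unfolded protein response, 20 fell and 0 rose (median -0.89). In the castrated and combined groups, compared with the same control arrays, 20 and 14 of the 30 fell (medians -0.91 and -0.84). Of all genes 2.36% and 2.21% fell in those groups. Derl3, which draws misfolded protein out of the reticulum, read 9.28, 9.54 and 8.95 in controls and 7.08, 7.06 and 6.90 after estradiol (-2.24 ± 0.36, adjusted p = 0.00264). Creld2, a stress-induced folding factor, read 10.20, 10.05 and 9.71 and then 8.16, 8.17 and 8.30 (-1.78 ± 0.22). In both, the 3 estradiol arrays lay close together, and array 3 shifted about as far as the others (-2.36 for Derl3 and -1.69 for Creld2). The major chaperone Hspa5 read 12.36 to 12.52 and then 11.32, 11.66 and 11.91 (-0.84 ± 0.18). It did not pass on array 3 alone, where its difference was -0.55. Sdf2l1, a partner of that chaperone, fell by 1.88, Dnajb9 by 1.52, Herpud1 by 1.51, Hyou1 by 1.30, Sel1l, of the degradation complex, by 1.13 and calreticulin (Calr) by 1.07. The stress sensors Atf6 (-0.79), Eif2ak3 (-0.43) and the transcription factor Xbp1 (-0.42) did not pass, and Xbp1 and Eif2ak3 read above their control mean on array 3. After quantile normalization 14 of the 30 fell and on array 3 alone 11, with medians of -0.64 and -0.66.

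The falls of chaperone genes could be set beside a sequence that the factors of the unfolded protein response are known to bind, the endoplasmic reticulum stress element. It consists of CCAAT and CCACG with any 9 bases between them and was searched on both strands. RefSeq promoters (build GRCr8), 250 bases before to 50 after the start, were at hand for 11950 of the tested genes. The element was found in 15 of these genes (0.126%), and 8 of them were among the 24 genes of the folding list that had a promoter (33.3%). Of the 15 genes, 7 fell and 0 rose, where 5.48% of all genes fell. All of the 7 but Ppm1l were of the folding list, of which 66.7% of measured genes fell. The part of the element in the falls was not tested. The elements of the folding list are shown with 12 bases on either side, read along the strand on which the element was found, with the element in capitals. They come from Derl3 at chr20:12766589-12766631, Creld2 at chr7:121789227-121789269, Calr at chr19:40213123-40213165, Dnajc3 at chr15:102432522-102432564, Hspa5 at chr3:38452961-38453003, Hsp90b1 at chr7:23012439-23012481 and chr7:23012335-23012377, Canx at chr10:35158057-35158099 and Xbp1 at chr14:84604546-84604588. Those of Derl3, Dnajc3, the nearer one of Hsp90b1, Hspa5 and Xbp1 were on the plus strand of the chromosome and the others on the minus strand.
Derl3: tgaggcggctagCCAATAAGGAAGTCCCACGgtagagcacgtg
Creld2: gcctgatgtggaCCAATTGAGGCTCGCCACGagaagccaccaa
Calr: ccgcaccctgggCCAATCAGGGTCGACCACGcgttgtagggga
Dnajc3: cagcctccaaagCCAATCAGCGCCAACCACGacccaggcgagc
Hspa5: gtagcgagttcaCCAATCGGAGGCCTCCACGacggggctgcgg
Hsp90b1 farther: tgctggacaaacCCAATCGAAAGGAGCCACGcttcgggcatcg
Hsp90b1 nearer: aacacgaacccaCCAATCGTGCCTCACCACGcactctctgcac
Canx: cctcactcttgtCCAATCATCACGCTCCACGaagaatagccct
Xbp1: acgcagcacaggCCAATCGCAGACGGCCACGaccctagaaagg

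The elements differ in the 9 bases between their fixed ends and in their distance from the start, which was 154 bases in Derl3, 145 in Creld2, 232 in Calr, 133 in Dnajc3, 43 in Hspa5, 176 and 72 in Hsp90b1, 230 in Canx and 65 in Xbp1. Derl3, Creld2, Calr, Dnajc3, Hspa5 and Hsp90b1 fell, by 2.24, 1.78, 1.07, 0.88, 0.84 and 0.65, while Canx (-0.35) and Xbp1 (-0.42) did not pass. The other fall among the 15 genes was that of Ppm1l (-1.10), a phosphatase of the reticulum membrane, and Ankmy2, Birc5, Hnrnpa3, Pan2, Zfand2a and Zfp57 did not pass. The promoter of Derl3, the gene of this set that fell most, is shown along the gene's strand, the minus strand, for the 250 bases before its start (chr20:12766466-12766715). The capitals mark the element, which reads in the opposite sense here.
Derl3 promoter: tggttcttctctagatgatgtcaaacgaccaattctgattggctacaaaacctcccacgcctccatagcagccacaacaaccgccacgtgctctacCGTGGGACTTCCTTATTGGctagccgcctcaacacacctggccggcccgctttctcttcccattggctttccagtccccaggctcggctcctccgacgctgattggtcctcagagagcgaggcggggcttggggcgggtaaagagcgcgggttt

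The CCAAT box alone, CCAAT on either strand and contained in the element above, was found in 38.4% of all 11950 promoters, in 14 of 18 of the cholesterol list (77.8%), 15 of 19 of the fatty acid list (78.9%) and 21 of 24 of the folding list (87.5%). The core of the sterol regulatory element, CACCCCAC on either strand, was in 2.34% of the 11950 windows, including 1 of the 18 of the cholesterol list. The longer sterol element that contains this core was in 0 windows. The palindromic androgen response element, AGAACA and TGTTCT with any 3 bases between them, was in 0 windows and the oestrogen response element, GGTCA and TGACC with any 3 bases between them, in 3. A match is a description of these letters in this window only.

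Genes of entry into the reticulum and of export from it also included falls. Of 27 measured genes of the translocon, the signal peptidase and N-glycosylation 16 fell and 0 rose (median -0.80). In the castrated and combined groups 13 and 10 of the 27 fell (medians -0.70 and -0.60), where 2.36% and 2.21% of all genes did. Ssr4, of the complex beside the translocon, read 11.17 to 11.34 in controls and 10.15, 9.77 and 9.97 after estradiol (-1.27 ± 0.15, adjusted p = 0.000248). Rpn1, of the oligosaccharyl transferase, read 11.60 to 11.67 and then 10.48, 10.66 and 10.75 (-1.0 ± 0.14). Ostc, also of that transferase, fell by 1.78, Dad1 and Sec11c, the latter a signal peptidase, by 1.27 each, and Sec61a1, the channel itself, by 1.24. Of 31 genes of transport between reticulum and Golgi 13 fell and 0 rose (median -0.80). In the castrated and combined groups 8 and 9 of the 31 fell (medians -0.61 and -0.54). Kdelr3, which returns resident proteins to the reticulum, read 9.57 to 9.67 and then 7.52, 7.91 and 7.70 (-1.92 ± 0.21). The cargo receptor Surf4 read 10.91 to 11.01 and then 9.29, 9.64 and 9.97 (-1.34 ± 0.18), and Lman1 and the coat protein Sec24d fell by 1.34 and 1.31. On array 3 alone 7 genes of each of these lists fell, with medians of -0.52 and -0.44. Bright genes as a whole lay lower on arrays 1 and 2, and after quantile normalization 10 and 12 genes of these lists fell, with medians of -0.54 and -0.55. Ssr4, Rpn1, Kdelr3, Surf4 and Sec24d passed in all 23 alternatives.

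Genes of amino acid supply and of polyamine metabolism also included falls. Of 25 targets of the stress factor Atf4 and genes of amino acid supply 13 fell and 0 rose (median -0.67). In the castrated and combined groups 10 and 8 of the 25 fell (medians -0.64 and -0.65), where 2.36% and 2.21% of all genes did. Psat1, of serine synthesis, read 7.97, 8.96 and 8.64 in controls and 6.0, 5.71 and 6.81 after estradiol (-2.35 ± 0.28). The cystine transporter Slc7a11 fell by 1.94, asparagine synthetase (Asns) by 1.82, the proline enzyme Pycr1 by 1.40 and the transaminase Gpt2 by 1.04. After quantile normalization 12 of the 25 fell, and on array 3 alone 7 did, with medians of -0.54 and -0.64. Of the 19 aminoacyl-tRNA synthetases 2 fell, Wars1 (-1.81) and Aars1 (-0.58). Polyamines are made in large amounts by the prostate, and 8 of 16 genes of their metabolism fell (median -0.51). In the castrated and combined groups 6 and 6 of the 16 fell (medians -0.37 and -0.28). Amd1, which makes the aminopropyl donor, read 10.13 to 10.21 and then 9.01, 8.88 and 9.05 (-1.18 ± 0.13). Spermidine synthase (Srm) fell by 1.53, Azin1, which protects ornithine decarboxylase, by 1.22, and Arg2 by 1.12, while ornithine decarboxylase itself, Odc1, was among the panel genes that did not pass. On array 3 alone the median of the polyamine list was -0.16, with 4 falls.

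Rises formed smaller groups. Of 24 genes of ribosome biogenesis 5 rose and 0 fell (median 0.32). Nucleolin (Ncl) read 9.24 to 9.37 in controls and 10.45, 10.45 and 10.53 after estradiol (1.16 ± 0.18), and nucleophosmin (Npm1) rose by 1.07. Both passed in all 23 alternatives, as did no other member. Of 29 cytosolic ribosomal proteins 0 passed in limma (5 at an unadjusted p under 0.05, the smallest that of Rpl13, with a difference of 0.91), and after quantile normalization 2 rose. Of 27 genes known from prostate regression and stress 3 rose and 0 fell. Gadd45b, induced by stress and DNA damage, read 7.30 to 7.64 and then 9.50, 9.08 and 9.35 (1.84 ± 0.16), clusterin (Clu), the best-known gene of the regressing prostate, read 10.58 to 11.03 and then 12.24, 12.25 and 12.73 (1.65 ± 0.18), and Smad3 rose by 0.64. Of 24 immediate early genes 3 rose (12.5%, where 2.51% of all genes did): Fosl2 (1.26), Jun (0.95) and Ier3 (0.69). Of 35 ABC transporters and glutathione enzymes 6 rose and 1 fell. Beside Abcc3 and Gpx3 the rises were Mgst1 (1.27), Gstm3 (1.23), Abca1 (1.0) and Gstt2 (0.94), and the fall was Gclc (-1.24), of glutathione synthesis. Among 34 apoptosis regulators 1 rose (2.94%, Bid, by 0.70) and 2 fell (5.88%, Diablo by 1.0 and Cflar by 0.87), shares near the 2.51% and 5.48% of all genes. After quantile normalization 1 rose and 1 fell, and on array 3 alone these 3 genes did not pass.

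Cell cycle genes rose in part: 7 of 31 rose and 2 fell (median 0.38). Top2a, which untangles replicated DNA, read 4.82 to 5.05 in controls and 6.40, 5.35 and 6.66 after estradiol (1.17 ± 0.31). The mitotic kinase Plk1 rose by 0.93 and cyclin B1 (Ccnb1) by 0.85. The falls were those of the G1 cyclins Ccnd1 and Ccnd3 (-0.72). Estradiol array 2 was the lowest of the 3, with a list median of 0.06, against 0.45 and 0.59 on arrays 1 and 3. On array 3 alone 10 of the 31 rose, and after quantile normalization 4. In the dimmest of the 10 groups of genes by control level 61 rose and 0 fell on deposited values, and 18 rose and 4 fell after quantile normalization, so counts of rises among dim genes moved with the normalization.

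Markers of the cell types of the gland were read beside these changes. Of 22 markers of luminal epithelium 5 rose and 1 fell (median 0.17): the tight junction protein Ocln (1.45), Krt8 (0.81), Krt18 (0.70) and Krt19, keratins of simple epithelium, and the claudin Cldn7 (0.55) rose, and the prostate homeobox gene Hoxb13 fell by 0.86. After quantile normalization 8 of the 22 rose and 1 fell, and on array 3 alone 3 rose. Of 19 markers of basal and squamous epithelium only Tgm1, a transglutaminase, passed (1.25). Of 20 endothelial markers 3 fell and 0 rose: Flt1, a receptor of vascular endothelial growth factor (-0.83), endoglin (Eng, -0.73) and Pecam1 (-0.58). The median level of the endothelial list was 6.11 to 6.34 on control arrays and 5.66 to 6.0 on estradiol arrays, and its median difference was alike on the 3 estradiol arrays, at -0.44, -0.47 and -0.35. After quantile normalization 4 of the 20 fell (median -0.55), and on array 3 alone these 3 did not pass. In smooth muscle the calponin Cnn1 fell by 1.40 and Pdlim3 rose by 1.32, with a median of -0.08 over 16 genes. Of 19 genes of fibroblasts and matrix only dermatopontin (Dpt) passed (-0.88), and it did not after quantile normalization or on array 3 alone.

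Markers of macrophages and dendritic cells differed among the estradiol arrays. Of 24 measured 2 rose, Aif1, a cytoskeletal protein of macrophages (1.29), and the signalling adaptor Tyrobp (1.02). The list median lay at 0.16 and 0.25 on estradiol arrays 1 and 2 and at 1.07 on array 3, and its median level was 5.72 to 6.08 on control arrays and 6.12 to 7.28 on estradiol arrays. On array 3 alone 12 of the 24 rose. Cd68, the general macrophage marker, read 7.21, 6.15 and 8.24 after estradiol against 6.10 to 6.72 in controls and did not pass. The rises of Gpnmb and Mmp12, known as macrophage genes, were largest on array 3 as well. Those of Aif1 (1.60, 0.95 and 1.34 on arrays 1, 2 and 3) and of C1qa (1.43, 0.33 and 1.20), also a macrophage gene, which rose by 0.98, were largest on array 1. The part of macrophage number in these rises was not tested. Of 22 lymphocyte markers Cd8b (0.76), Cd3g (0.69) and Cd2 (0.62) rose, all from low levels, and 0 passed after quantile normalization. Of markers of granulocytes and mast cells only the mast cell protease Cpa3 passed (-1.19). In nerve and Schwann cells Pmp22 and Nefl fell by 2.13 and 1.25 and Mbp rose by 1.02. Of 10 genes of the seminal vesicle and other glands 0 passed in limma (1 at an unadjusted p under 0.05, the secretory protein Svs4, with a difference of -1.06). Their median level was 3.44 to 3.53 on control arrays and 3.63 to 3.94 on estradiol arrays. Their median difference was 0.22 on each of estradiol arrays 1 and 2, the arrays of narrow range, and -0.07 on array 3. After quantile normalization it was -0.0. Semg1 on array 3, given above, was the exception, and the part of tissue from another gland in that array's values was not tested.

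**Figure D4:**
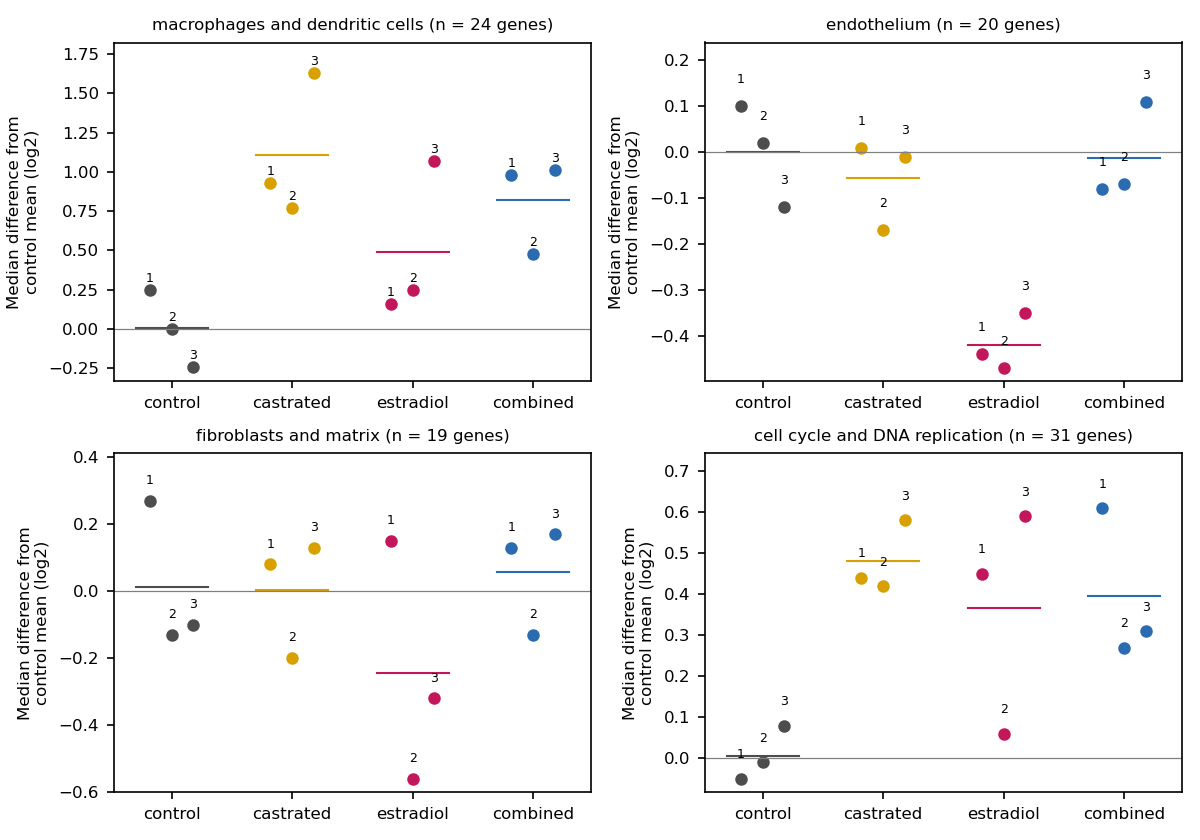
Median difference from the control mean (log2, y axis) of 4 gene lists on each of the 12 arrays, with 1 numbered point per array and a line at the mean of the group's 3 points. Endothelial markers lie lowest on the 3 estradiol arrays (-0.44, -0.47 and -0.35), while macrophage markers on estradiol arrays 1 and 2 (0.16 and 0.25) lie below array 3 (1.07).

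The remaining lists held few calls. Of 34 genes of the citrate cycle and zinc handling, for which the prostate is known, 2 rose (5.88%) and 3 fell (8.82%), where 2.51% and 5.48% of all genes did. The zinc exporter Slc30a2 (1.19) and metallothionein Mt2A (0.96) rose, and Slc30a7 (-0.97), Ogdh (-0.90) and Pdhb (-0.61) fell. After quantile normalization 1 fall was left, and the list median was -0.13, and -0.05 on array 3. Of 29 subunits of the respiratory chain 4 fell (13.8%), among them Cox6a1 (-0.99), and 1 fell after quantile normalization. Their median was -0.28, and -0.18 on array 3. These are bright genes, with a median control level of 9.65 to 9.71, and in the brightest of the 10 groups of genes 289 of 1451 fell. Of 30 lysosomal and proton pump genes 4 fell, led by Atp6v1a (-1.48), and 1 rose, Atp6v1c2. That balance turned over to 4 rises and 2 falls both after quantile normalization and on array 3 alone. In complement and acute phase genes C1qa and Fgb (0.98) rose, and among 32 interferon genes only Oas1k passed. Among 17 adipose, muscle and blood genes Lep rose by 0.84 and Acta1 fell by 1.03. After quantile normalization 0 of them rose and 0 fell. On array 3 alone the difference was 0.17 for Lep and -0.92 for Acta1.

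**Figure D5:**
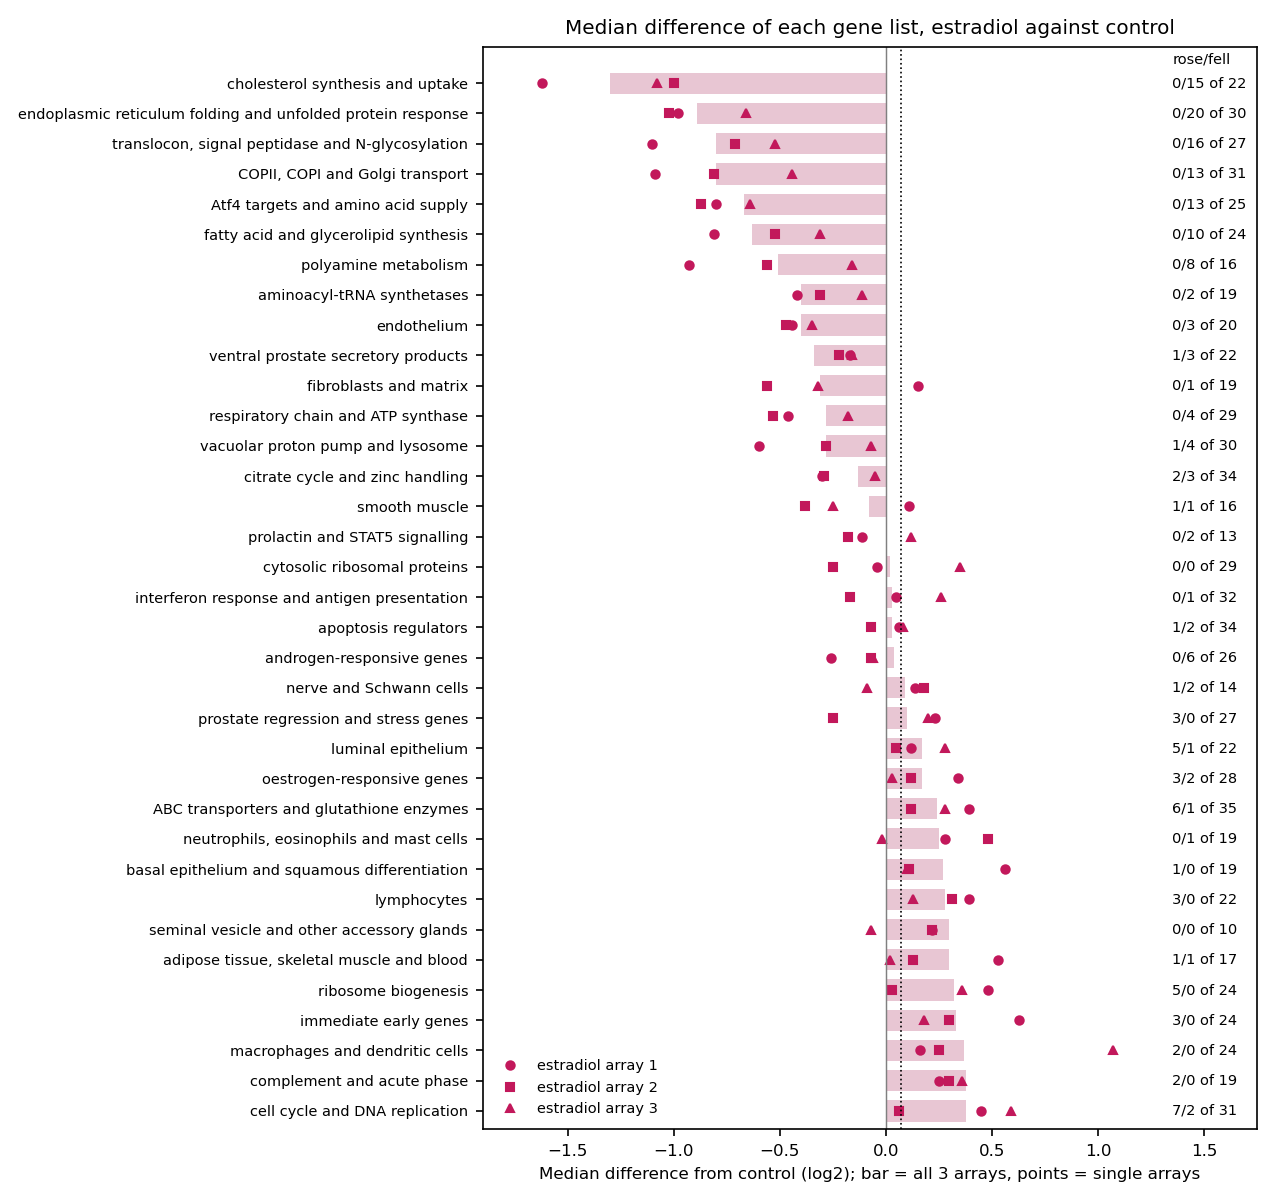
Bars give the median over a list's genes of the difference between estradiol and control (log2, x axis), points the same median for each estradiol array against the control mean, the dotted line the median of all genes (0.07), and the numbers how many genes rose and fell of those measured. Cholesterol synthesis (-1.30) and endoplasmic reticulum folding (-0.89) have the lowest medians, and their single-array medians nearest to 0 are -1.0 and -0.66.

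Estradiol in intact rats was also set against castration and against the combined treatment, to show where its effect differed. Of the 12 largest rises all but Gpx3 (0.32) also passed as rises in the castrated group against control. The 12 largest falls also passed there as falls. Castrated minus control was 4.53 for Mep1b, 3.06 for Abcc3, -3.82 for Cpa6 and -2.07 for Pfkfb4. The same control arrays enter both comparisons. On both deposited and quantile-normalized values 146 genes (1.01% of those tested) were lower on the 3 estradiol arrays than on each of the other 9 arrays, and 98 (0.676%) were higher. Against castrated rats 0 genes passed in limma at an adjusted p of 0.05 (3956 at an unadjusted p under 0.05, smallest adjusted p 0.0792), and the combined treatment against estradiol gave 0 as well (2742, smallest 0.241). A count of 0 (0.0% of genes) does not show that the treatments act alike. With array quality weights, which gave the estradiol arrays 0.079, 0.269 and 0.827, 1627 and 489 genes passed. Without estradiol array 3 the counts were 5417 and 4153. Without arrays 1 and 2 they were 6 (0.0414%) and 2 (0.0138%). These calls rest on estradiol array 3 alone. Those against the castrated arrays were Semg1, Msmb, Pdlim3, Gpx3, Aox3 and Hpx, all higher on array 3. Those against the combined arrays were Semg1 and Msmb, which were high on array 3 and on no other array. Gpx3 and Pdlim3 read higher on each estradiol array and each combined array than on any control or castrated array. Pdlim3 read 7.61, 6.80 and 8.24 after estradiol, 6.76 to 7.15 in the combined group and 5.69 to 6.25 after castration.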

How the data were processed

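Ventral prostate RNA was measured on 12 arrays in 4 groups of 3. Per the submitters' processing notes, the authors used Affymetrix Expression Console; the version, log base, build and normalization behind the values: not given in the sources used here. The deposited values were taken as log2 levels from their range, and every log2 difference rests on that reading. Of 29214 probe sets, 15310 had a single gene symbol, 323 several and 13581 none. For 527 genes with more than 1 probe set the brightest was used, leaving 14506 genes.

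Differences were tested with limma 3.58.1 (R 4.3.3; lmFit, eBayes) on all 12 arrays with a mean per group, 8 residual and 5.29 prior degrees of freedom, two-sided, adjusted over all genes; every adjusted p is from it. The procedure was tested on simulated data. Precision is limited by the number of arrays, and standard errors had a median of 0.19. The members and the 35 gene lists and panel (22 of 31 genes measured) were chosen with earlier results of these data known. Genes were named by a rule: the 12 largest rises and falls with non-overlapping groups, up to 3 rises and 3 falls per list (or the smallest p), and the panel. Other list members are named beyond the rule, and Semg1, Msmb, Aox3, Hpx, Cd34, Ppm1l, the genes with a promoter element, Cd68, Sytl2, Ehd4 and Mcpt1l1 were named after their values were seen. Promoter sequences are RefSeq's (GRCr8).

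Alternatives were quantile normalization, centred medians, array weights, the 6 arrays alone, a trended prior, a filter on the dimmest 25% of genes, mean probe sets, the replicate number as a block, and leaving out arrays; 2 combinations were added after seeing the data. Deviations of estradiol and castrated arrays with the same number correlated at 0.14, 0.28 and 0.20, each over the 0.1 taken to mark pairs, and blocking left 0 genes between these groups. Those of estradiol and control arrays (-0.06, 0.08, -0.05) did not mark pairs.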

Additional observations from a re-analysis of the deposited data

How the results depend on the processing

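With 3 uneven arrays, the number of genes called depended on the arrays. How far direction did cannot be read from the 1159, which were chosen on these same arrays. The count of 1159 became 197 with only the 6 compared arrays, 2307 with array weights, 733 without estradiol arrays 1 and 2 and 738 when these were left out after quantile normalization. Leaving out single arrays gave 390 to 5329. Against castrated the count of 0 became 1627 with array weights, 6 without estradiol arrays 1 and 2 with or without quantile normalization, 2 with quantile normalization and weights, and 0 to 5417 without single arrays. Combined against estradiol gave 489 with weights, 2 without arrays 1 and 2 either way, and 0 to 4153 without single arrays. The replicate number as a block gave 1255 genes, 1076 of them among the 1159, and ended 5 of the calls of the 226 genes followed here; same-numbered estradiol and control arrays did not deviate together.

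The genes that changed sign in an alternative had not passed, which the choice of the called genes on these same arrays made likely. With quantile normalization these were Fgf7 (-0.09), Gper1 (-0.06), Hsd17b2 (-0.16) and Nr3c1 (0.04); with centred medians Fgf7 (-0.03), Gper1 (-0.03) and Hsd17b2 (-0.07); with array weights Aox3 (-0.01), Krt14 (-0.38), Nr3c1 (0.08) and Tgfb1 (-0.08). Without estradiol arrays 1 and 2 they were Esr1 (-0.10), Hsd17b2 (-0.06), Nr3c1 (0.28), Odc1 (0.11) and Shh (0.03), and after quantile normalization as well Esr1 (-0.12), Hsd17b2 (-0.07), Nr3c1 (0.26) and Odc1 (0.17). Quantile normalization with weights turned Esr1 (-0.11), Fgf7 (-0.02), Hsd17b2 (-0.10), Nr3c1 (0.25) and Odc1 (0.10). Leaving out single arrays gave Aox3 -0.18 to 0.61, Hsd17b2 -0.09 to 0.20, Krt14 -0.11 to 0.77, Nr3c1 -0.34 to 0.19, Semg1 -0.18 to 3.24, Shh -0.48 to 0.05 and Tgfb1 -0.11 to 0.39. The cause of these shifts was not tested. The array number and the unknown normalization limit what small differences can show.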

Other observations

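Some of the genes on which the estradiol arrays of intact rats lay outside all 9 other arrays showed wide gaps. Among the lower ones with the widest gaps, Cd34, a surface protein of endothelial and stromal progenitor cells, read 5.63, 6.62 and 6.98 after estradiol, 7.89 to 8.25 in controls, 8.23 to 9.04 after castration and 7.52 to 7.95 in the combined group. Rnase4 read 5.56, 6.34 and 6.89 after estradiol and 7.42 to 7.99 on the other 9 arrays. Ehd4, a protein of endosomal recycling, read 8.51, 8.83 and 9.37 against 9.65 to 10.26. Pecam1, Dpt, the mast cell protease Mcpt1l1 and Sytl2, a factor of vesicle docking, showed the same order. These 7 genes were chosen because the 3 estradiol values lay below every other array, so that order is a description and supports nothing about the other groups. Against the castrated group the differences of Cd34 (-2.12), Rnase4 (-1.66) and Ehd4 (-1.22) each had an adjusted p of 0.0792 in limma and did not pass.

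The higher ones were smaller: the widest gap above all other arrays was 0.34, for Tuba3b, against 0.54 below, for Cd34.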
